A study of Arabidopsis thaliana with 2 samples.

Results

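CLE41, CLE44, MOL1 and PHV are 4 Arabidopsis thaliana genes of the vascular cambium and of vascular patterning, and their transcript signals were read in 2 samples of hypocotyl, the stem below the seed leaves. They were taken as the single-gene probe sets that the platform annotation gives these symbols, 1 probe set for each gene, out of 13350 genes with a single-gene probe set and 22746 plant probe sets in all. Both samples were hypocotyls of the ecotype col at growth stage 6.0, from plants kept in a phytotron at 22 °C in short days (8 h light, 16 h dark) on a compost and vermiculite medium, with Intercept in the first watering. No mutant, treatment contrast or other tissue was included, so there was 1 group, and an ATH1 array was used for each sample. The samples are called sample 2 and sample 1 here; whether they are of different plants is not in the labels, and their spread may be only technical. With 2 arrays of 1 group no test was possible.

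The vascular cambium is the dividing cell layer that thickens the hypocotyl, giving off xylem to the inside and phloem to the outside. CLE41 and CLE44 are expressed in phloem and are cut to the same short peptide, known as TDIF, which moves to the cambium, binds the receptor kinase PXY there, keeps cambium cells dividing and holds back their change into xylem. MOL1 is a receptor-like kinase that restrains cambium activity, and PHV is a class III homeodomain-leucine zipper factor that helps to set the inner, xylem side of vascular bundles and the upper side of leaves.

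All 4 genes gave signals well above the detection limit on both arrays, and the arrays differed little for any of them. The limit on each array was the highest signal among 27 control probe sets for Bacillus transcripts, 12.6 in sample 2 and 13.1 in sample 1. That limit was passed on both arrays by 4 of 4 genes and by 70.0% of plant probe sets. The 4 also passed 2 times that limit, as 58.0% of plant probe sets did, and a signal of 50 on both arrays, as 45.1% did. With the TrpnX controls alone as the limit the share of plant probe sets was 85.2%. With so few genes, these shares do not set the genes apart from the rest of the array.

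Among the peptide genes, CLE41 (AT3G24770) gave 699.3 units of scaled intensity in sample 2 and 757.3 in sample 1, a mean of 728 ± 41.0 (SD, n = 2). Its probe set was the brightest of the 4, at rank 690 of all plant probe sets in sample 2 and rank 648 in sample 1. Thus 97.0% and 97.1% of plant probe sets, in that order of samples, were dimmer. CLE44 (AT4G13195), which encodes the same peptide, had 69.7 in sample 2 and 77.9 in sample 1, a mean of 73.8 ± 5.80. This probe set lay in the middle part of the range, at rank 8848 in sample 2 and rank 8221 in sample 1, with 61.1% and 63.8% of plant probe sets dimmer. A rank here is of brightness and not of transcript amount, because equal amounts of RNA light up different probes unequally. The distance between CLE41 and CLE44 therefore does not say which gene gave more transcript. In whole hypocotyls, fewer cells of a type and less RNA per cell cannot be told apart either.

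The receptor-like kinase gene MOL1 (AT5G51350) gave signals of 259.6 in sample 2 and 267.8 in sample 1, a mean of 264 ± 5.80. It ranked 2782 in sample 2 and 2662 in sample 1, with 87.8% and 88.3% of plant probe sets dimmer. The transcription factor gene PHV (AT1G30490) had 217.3 in sample 2 and 227.3 in sample 1, a mean of 222 ± 7.07. Its rank was 3363 in sample 2 and 3163 in sample 1, with 85.2% and 86.1% of plant probe sets dimmer. MOL1 and PHV were thus bright on both arrays, and all 4 genes kept the same order of brightness in each.

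**Figure D1:**
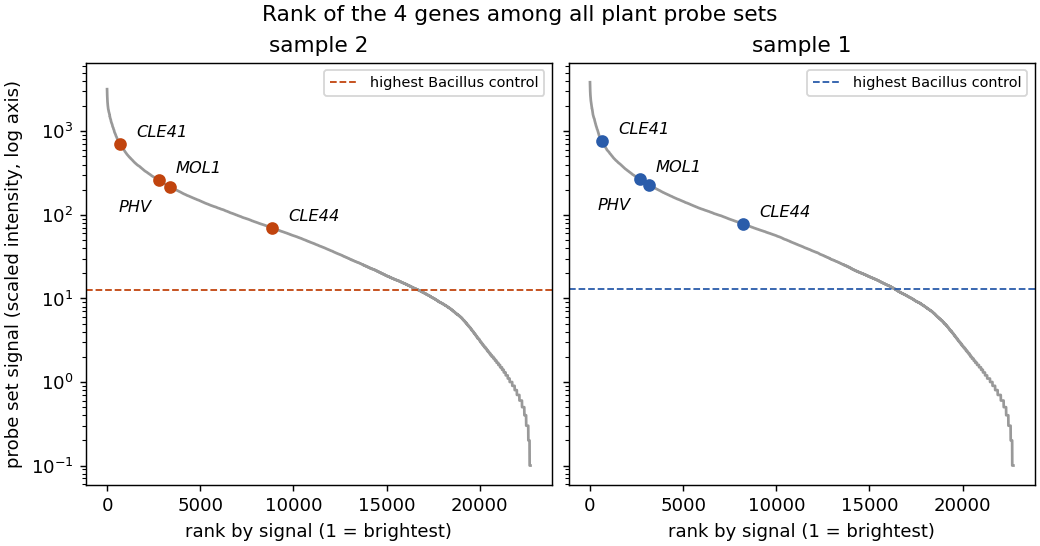
Signal of every plant probe set (scaled intensity, log axis) against its rank, with sample 2 on the left and sample 1 on the right. Points mark the 4 genes and the dashed line the highest Bacillus control. CLE41 lies at rank 690 in sample 2 and 648 in sample 1, and CLE44 at rank 8848 and 8221, far above the line on both arrays.

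The agreement of the arrays was described by the log2 ratio of sample 2 over sample 1, set beside the 1000 plant probe sets nearest in mean signal, because the spread narrows as signal grows. CLE41 had a log2 ratio of -0.11, and 57.9% of its 1000 neighbours differed by less in size. For CLE44 the log2 ratio was -0.16, the largest of the 4 in size, and 57.2% of its neighbours differed by less. Both peptide genes thus matched between the arrays about as well as a typical probe set of their brightness. MOL1 had a log2 ratio of -0.04, with 24.9% of its neighbours differing by less, and PHV one of -0.06, with 35.0% differing by less. These 2 genes were closer between the arrays than most of their neighbours. The coefficient of variation was 7.86% for CLE44, 5.63% for CLE41, 3.18% for PHV and 2.20% for MOL1, against a median of 6.69% over the 15919 plant probe sets that passed the limit on both arrays. None of the 4 genes lay outside the central 95% of its neighbours. The narrowest such range was that of CLE41, from -0.36 to 0.34, and the widest that of CLE44, from -0.46 to 0.48.

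**Figure D2:**
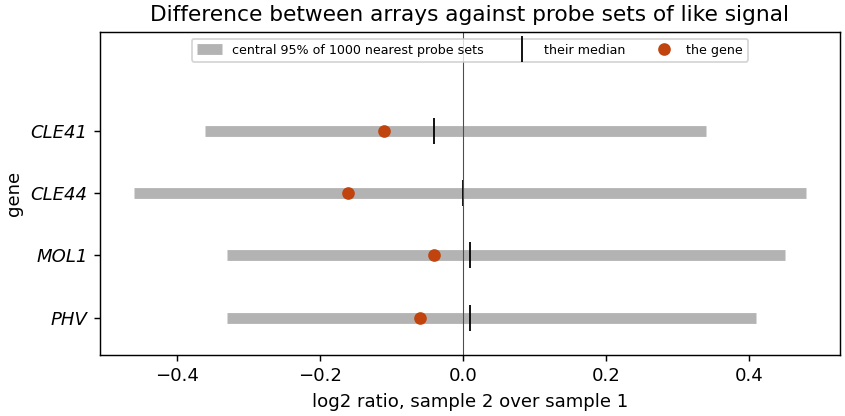
Log2 ratio of sample 2 over sample 1 for each gene (point), beside the central 95% (grey bar) and the median (tick) of the 1000 plant probe sets nearest in mean signal. All 4 points lie inside their bars, to the left of the tick.

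All 4 genes had lower signals in sample 2, with log2 ratios between -0.16 and -0.04. Of the plant probe sets that passed the limit on both arrays, 49.9% were lower in sample 2. Among the neighbours in signal the share was 63.5% for CLE41, 49.5% for CLE44, 47.8% for MOL1 and 48.4% for PHV. Bright probe sets such as that of CLE41 thus leaned toward sample 1 as a whole, with a median log2 ratio of -0.04 among its neighbours. Of the probe sets above the limit, 56.3% were no further apart than CLE44, and 0.465% were 2-fold or more apart. All 18 control probe sets for the bacterial bio and phage cre transcripts were also lower in sample 2, with a median log2 ratio of -0.78. The labels also set the arrays apart in scan quality: sample 2 had a mean background of 95.57, a mean noise of 6.28 and 974 outlier cells, against 79.94, 4.81 and 586 in sample 1. The part of these array differences in the ratios of the 4 genes was not tested. After quantile or loess normalization the log2 ratio of CLE41 was -0.05.

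**Figure D3:**
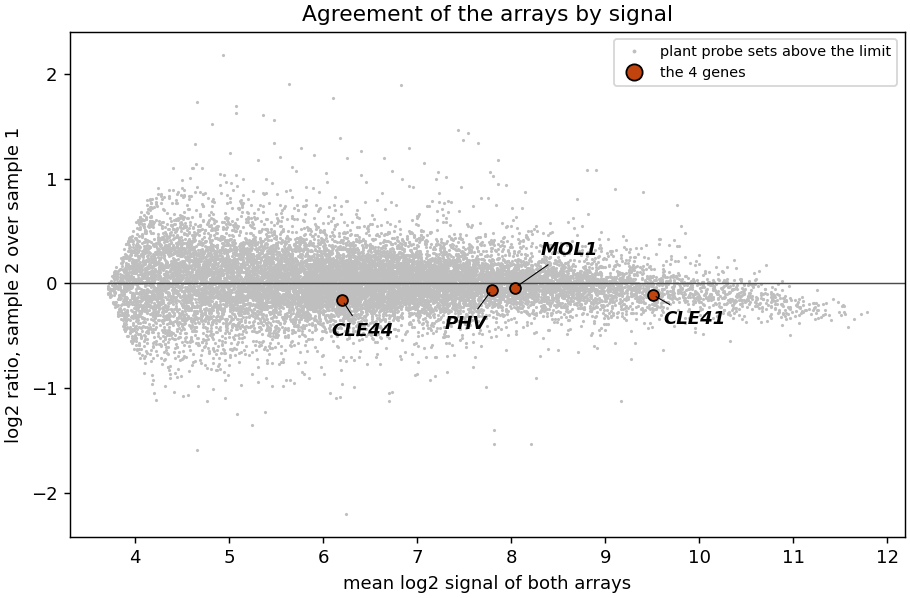
Log2 ratio of sample 2 over sample 1 against the mean log2 signal of both arrays for the 15919 plant probe sets above the limit (grey), with the 4 genes marked. The genes lie just under 0, between -0.16 and -0.04, inside the cloud at their signals.

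Of the CLE peptide family, including the founding gene CLV3, 7 genes had a single-gene probe set annotated with their symbol. Of these, 3 passed the limit on both arrays, against 70.0% of plant probe sets. CLE26, whose peptide acts on root protophloem, was the third beside CLE41 and CLE44. Its signal was 60.7 in sample 2 and 66.9 in sample 1 (log2 ratio -0.14). The other 4 were under the limit in both samples. CLE21, the closest to it, had 11.8 in sample 2 and 12.7 in sample 1. CLE40, a peptide gene of the root tip, had 6.5 in sample 2 and 5.2 in sample 1, and CLE27 had 3.7 and 2.3 in the same order. CLV3, which marks stem cells of the shoot tip, had 2.9 in sample 2 and 1.4 in sample 1. For these 4 genes no expression was detectable above the highest Bacillus control, and their ratios are not read. This depends on the limit. With the TrpnX controls alone it was 3.3 in sample 2 and 2.5 in sample 1, and 85.2% of plant probe sets passed on both arrays. CLE21 and CLE40 then passed on both arrays, CLE27 in sample 2 only and CLV3 in neither.

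Of 23 genes listed for TDIF-PXY signalling in the cambium, 5 had a single-gene probe set matched by locus. All 5 passed the limit on both arrays, as 70.0% of plant probe sets did. Of the 5, 3 are among the genes described above. Beside CLE41, CLE44 and MOL1 these were PXL1 and PXL2, the close relatives of the TDIF receptor gene PXY. PXL1 (AT1G08590) had 23.2 in sample 2 and 22.0 in sample 1, and PXL2 (AT4G28650) had 15.2 in sample 2 and 18.5 in sample 1. Both receptor genes were thus near the limit, where the spread is wide, and their log2 ratios of 0.08 and -0.28 lay on either side of 0. PXY itself and WOX4, the homeobox gene through which TDIF keeps the cambium dividing, were not analysed here.

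PHV was the measured gene of 17 listed for class III homeodomain patterning. PHB, REV, ATHB15 and ATHB8, its family members, and the KANADI genes that oppose them were not analysed here. Of 13 genes listed as CLE receptors and co-receptors, AT2G23950 was the measured one, with a signal of 41.2 in both samples; the gene tables used here give it no such role, so its place in the list is uncertain. None of the 11 listed cytokinin and auxin genes of the cambium had a single-gene probe set matched by locus.

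**Figure D4:**
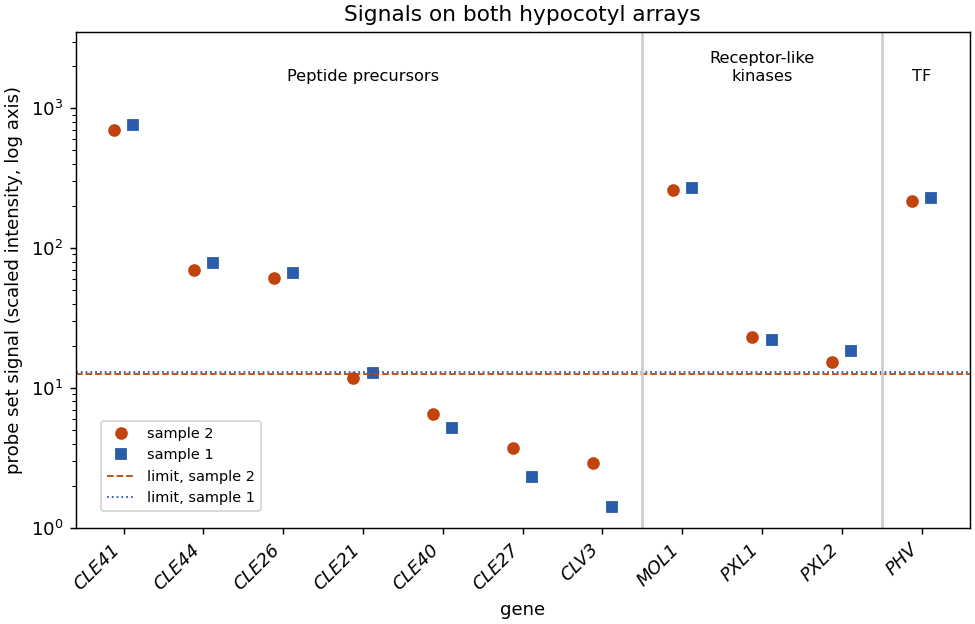
Signals on both arrays (scaled intensity, log axis) of the named CLE peptide genes, 3 receptor-like kinase genes and the transcription factor gene PHV (TF); circles are sample 2 and squares sample 1, and lines are the limits of 12.6 and 13.1. CLE41, CLE44 and CLE26 lie above the limits and CLE21, CLE40, CLE27 and CLV3 under them, while PXL1 and PXL2 lie just above. Heights of different genes cannot be read as transcript amounts.

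Markers of phloem, xylem, leaf and root hair were thinly covered. Of 10 phloem markers 2 were measured, and these passed the limit on both arrays, as 70.0% of plant probe sets did. OPS, which acts in phloem differentiation, had 43.5 in sample 2 and 34.6 in sample 1, and the sucrose exporter gene SWEET11 had 36.6 and 28.4. Their log2 ratios of 0.33 and 0.37 lay inside the central 95% of their neighbours in signal, from -0.59 to 0.64 for OPS and from -0.64 to 0.73 for SWEET11, as those of CLE41 and CLE44 did. OPS and SWEET11 were higher in sample 2, while CLE41 and CLE44 were lower. Of the 1000 nearest probe sets in signal, 77.5% differed by less than OPS and 77.2% by less than SWEET11. Whether these phloem-expressed genes moved in opposite directions was not tested. Of 12 xylem markers, GUT2, a xylan synthesis gene, was measured, with 185.8 in sample 2 and 159.6 in sample 1. Its log2 ratio was 0.22, and 78.2% of its neighbours differed by less. The leaf markers RCA and LHCB4.1, 2 of 6 listed, had log2 ratios of 0.05 and 0.09. RCA had 251.8 in sample 2 and 242.8 in sample 1, and LHCB4.1 had 694.4 and 653.0. The root hair markers EXPA7 and EXPA18, 2 of 5, were just above the limit, with signals from 13.6 to 15.2. The part of differing tissue shares in the ratios of the 4 genes was not tested.

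The genes most like each of the 4 were taken as those with the smallest Euclidean distance in log2 signal over the 2 arrays. For CLE41 they were ndhI, a chloroplast gene for an NDH complex subunit, at a distance of 0.00953, and EIF4A-2, a translation initiation factor gene, at 0.0173. For CLE44 they were AT3G62140 and AT3G03790, for MOL1 AT4G38350 and AT3G49490, and for PHV AT5G12470 and AT3G55960, at distances from 0.00817 to 0.0195. Within a distance of 0.1 lay 30 single-gene probe sets for CLE41, 96 for CLE44, 79 for MOL1 and 94 for PHV. Over 2 arrays of 1 tissue such likeness is common and describes equal brightness alone.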

How the data were processed

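The authors deposited linear intensities, 1 per probe set, from 1-colour ATH1 arrays, with 1 decimal, hybridised with biotin-labelled cRNA per the labels' protocols. Which software summarised the probes is not stated in these sources. The authors' values have the same mean on both arrays after trimming 2% at each end. They were rescaled to that common trimmed mean, which left them unchanged to the decimal given. Ranks and counts leave out 64 control probe sets. Names came from the platform annotation, and lists were matched by locus through the RefSeq gene table of TAIR10.1. Of 13513 single-gene probe sets 13436 matched that table; CLE21 did not and was named by its platform symbol. A further 503 probe sets had several genes and 8730 plant probe sets were unnamed. Log2 ratios had nothing added. Members and lists were chosen with earlier results of these data known. The named genes were the 4 members, all measured genes of the pathway lists and CLE family, up to 4 per marker list, and the 2 nearest probe sets to each member. CLV3 was added to the CLE family after its values were seen. The steps were tested on simulated arrays. These had the same log2 noise at every signal, so they could not check the comparison with neighbours in signal. Python 3.11.15, numpy 2.4.6, pandas 2.3.3, scipy 1.17.1 and statsmodels 0.14.6 were used. Alternatives were other scalings, quantile and loess normalization, other limits, other sets of ranked probe sets, 16 added before log2, 300 neighbours and leaving out each sample. Precision is limited by having 2 arrays.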

Additional observations from a re-analysis of the deposited data

How the results depend on the processing

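The log2 ratios of the 4 genes stayed below 0, between -0.18 and -0.04, after scaling to a common median, after quantile or loess normalization and with 16 added before log2; leaving out the rescaling cannot change them, since it left the values as deposited. CLE41 moved most, from -0.11 to -0.05 under both quantile and loess normalization, and MOL1 was -0.07 under median scaling against -0.04. All 4 genes passed every limit tried: the TrpnX controls alone, 2 times the Bacillus limit, a signal of 50, and either sample alone. The TrpnX controls are part of the Bacillus controls, so their limit cannot be the higher one. Passing on both arrays also implies passing on either. The outcomes for the TrpnX controls and for either sample alone were thus fixed by the main result. Those for 2 times the Bacillus limit and a signal of 50, which are stricter, were not. Ranked among single-gene probe sets only, the share of dimmer probe sets was higher, at 97.9% against 97.1% for CLE41, 67.3% against 62.5% for CLE44, 90.6% against 88.0% for MOL1 and 88.7% against 85.6% for PHV (means of both arrays); unnamed and multi-gene probe sets leave that ranking by construction. Of the 97 genes of all lists, 14 were measured. All 14 passed the main limit, against 70.0% of plant probe sets. A signal of 50 was passed by 7 of them, against 45.1% of plant probe sets. Both counts include CLE41, CLE44, MOL1 and PHV themselves. From either sample alone, the share of dimmer probe sets was 97.0% to 97.1% for CLE41, 61.1% to 63.8% for CLE44, 87.8% to 88.3% for MOL1 and 85.2% to 86.1% for PHV. These repeat the values of each array given above. No paired analysis was possible because the labels give both samples 1 group.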
